A study of Rattus norvegicus with 24 samples.

Results

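The comparison described here sets the brains of SAM-exposed rats against those of sham-exposed rats. Its members are the 6 brain libraries among the 24 libraries of the series, taken by tissue and animal number, and all genes that passed a filter on low counts in them, 15126 of the 32883 listed. The rats were Sprague-Dawley, an outbred laboratory strain, and were 7 months old. The exposed group holds animals 1, 2 and 3, labelled SAM-exposed, and the control group holds animals 13, 15 and 16, labelled sham-exposed. The series title names PCB exposure, while the labels say nothing of the dose, route and duration, of the brain region taken or of the sex of the rats. The remaining 18 libraries come from liver, thymus and spleen.

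Polychlorinated biphenyls (PCBs) are persistent chlorinated industrial compounds. Some of them bind the aryl hydrocarbon receptor (AhR), which pairs with the protein Arnt and switches on enzymes of foreign-compound metabolism such as those of the Cyp1 family, and others act on receptors for drugs or on the transport of thyroid hormone. The brain is a mosaic of regions whose neurons use different transcription factors and transmitters, wrapped in meninges made by collagen-producing fibroblasts and bathed in fluid from the choroid plexus, so the RNA of a piece of brain also records which regions and coverings the piece contained. In such bulk RNA, fewer cells of a type and less RNA per cell cannot be told apart.

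The libraries held 12.9 to 19.6 M (mega) counts, and levels are given in CPM (counts-per-million, TMM-scaled), so that 1 CPM stands for 12.3 to 19.4 counts. The tissue label fitted its markers: 10 pan-neuronal genes summed to 6879 to 10377 CPM in the brain libraries and to at most 39.5 CPM in any other tissue, and 8 hepatocyte genes summed to 12.1 to 18.6 CPM in brain. None of the 10 hindbrain Hox genes passed the filter. The exposed libraries were not alike. By a chi-square over its degrees of freedom, SAM 1 and SAM 2 differed from each other by 5.95 times sampling noise, from SAM 3 by 72.6 and 55.6 times, and from the sham libraries by 57.0 to 86.3 times, while SAM 3 differed from the sham libraries by 12.01 to 14.5 times and those from each other by 7.77 to 10.04 times. Results that rest on SAM 1 and SAM 2 are therefore given with the value of SAM 3 beside them.

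Over the 15126 genes, edgeR called 0 (0%) at an adjusted p under 0.05, with a lowest adjusted p of 0.221. At an unadjusted p under 0.05 edgeR placed 1806 genes (11.9%) on the higher and 1302 (8.61%) on the lower side in the exposed group. The DESeq2 test called 503 genes (3.33%) after adjustment and limma-voom 0. Without SAM 3 edgeR called 5896 genes, and without any 1 of the other 5 libraries it called 0. Every SAM library lay above every sham library for 11.6% of the genes and below for 12.2%, and 51.4% had a positive log2 fold change. All differences below, named genes included, are therefore values that did not pass edgeR's adjusted test, and the p-values measure the spread between these samples, which the labels do not state to be separate animals. The log2 fold changes are SAM minus Sham, with a standard error (SE) from the edgeR fit.

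Of the genes that averaged 1 CPM or more and whose groups did not overlap, the 10 with the lowest p in each direction are described first. Filamin A (Flna, ENSRNOG00000054890), which crosslinks actin filaments, stood at 116, 116 and 111 CPM in SAM 1, 2 and 3 and at 74.2, 73.5 and 80.8 CPM in Sham 13, 15 and 16, a log2 fold change of 0.59 ± 0.07. That all 3 exposed libraries lay above the sham range, SAM 3 included, was the condition under which these genes were taken. Adgra2 (ENSRNOG00000012991), an adhesion receptor of brain blood vessel development, gave 49.6, 47.8 and 45.5 against 30.3, 32.8 and 32.3 CPM (0.58 ± 0.08). Rarres2, which encodes the secreted adipokine chemerin, gave 37.6, 30.7 and 30.6 against 16.8, 19.9 and 19.2 CPM (0.83 ± 0.12).

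Nestin (Nes, ENSRNOG00000018681), an intermediate filament of neural progenitors, reactive glia and vessel cells, was at 6.58, 6.36 and 5.27 CPM in SAM and at 2.46, 2.73 and 3.04 CPM in Sham (1.15 ± 0.17). Cpxm1, of the carboxypeptidase family, was at 15.7, 14.9 and 11.99 against 6.08, 5.999 and 7.78 CPM (1.10 ± 0.16), and Rin3, which activates the endosomal GTPase Rab5, at 6.47, 7.55 and 6.56 against 3.63, 3.27 and 3.71 CPM (0.95 ± 0.15). The others on the higher side were Stard8 (1.01), a GTPase-activating protein, Zic2 (0.996), a zinc finger transcription factor, RGD1310587 (0.67) and Pttg1ip (0.45). In 9 of these 10 genes SAM 3 was the lowest exposed library; the exception was Rin3.

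On the lower side the first gene was Foxp2 (ENSRNOG00000054508), a forkhead transcription factor of striatal and deep cortical neurons. It stood at 7.50, 7.49 and 7.45 CPM in SAM and at 14.4, 13.6 and 17.5 CPM in Sham, a log2 fold change of -1.02 ± 0.13. The exposed libraries differed from each other by less than 0.1 CPM here, although SAM 3 resembled the sham libraries elsewhere. At 12.3 to 18.4 counts per CPM in these libraries, counting alone leaves a wider spread than that. Choosing genes by the lowest p favours such small spreads. Bhmt (ENSRNOG00000011200), which remethylates homocysteine with betaine, gave 2.77, 3.98 and 3.403 against 7.03, 7.15 and 7.42 CPM (-1.09 ± 0.17).

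Among the remaining lower genes, the potassium channel gene Kcna6 was at 80.9, 87.8 and 97.96 against 154, 128 and 145 CPM (-0.68 ± 0.11). Sh3gl2, the endophilin of synaptic vesicle retrieval, was at 181, 175 and 195 against 255, 252 and 259 CPM (-0.47 ± 0.08). Lrrtm2, a postsynaptic ligand of neurexin (-0.61), Nxph3, the secreted neurexin ligand neurexophilin (-1.32), and Ncam2, a cell adhesion molecule of axons (-0.63), were lower by similar or larger amounts. Pik3cd, a catalytic subunit of phosphoinositide kinase (-0.44), Hs3st2, a heparan sulfate sulfotransferase (-0.61), and LOC108348081 (-0.85) completed the 10. The list of pan-neuronal genes had 9 of 10 negative, with median ratios of -0.39, -0.36 and -0.067 in SAM 1, 2 and 3 and -0.057 to 0.070 in Sham, and its part in these differences was not tested.

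**Figure D1:**
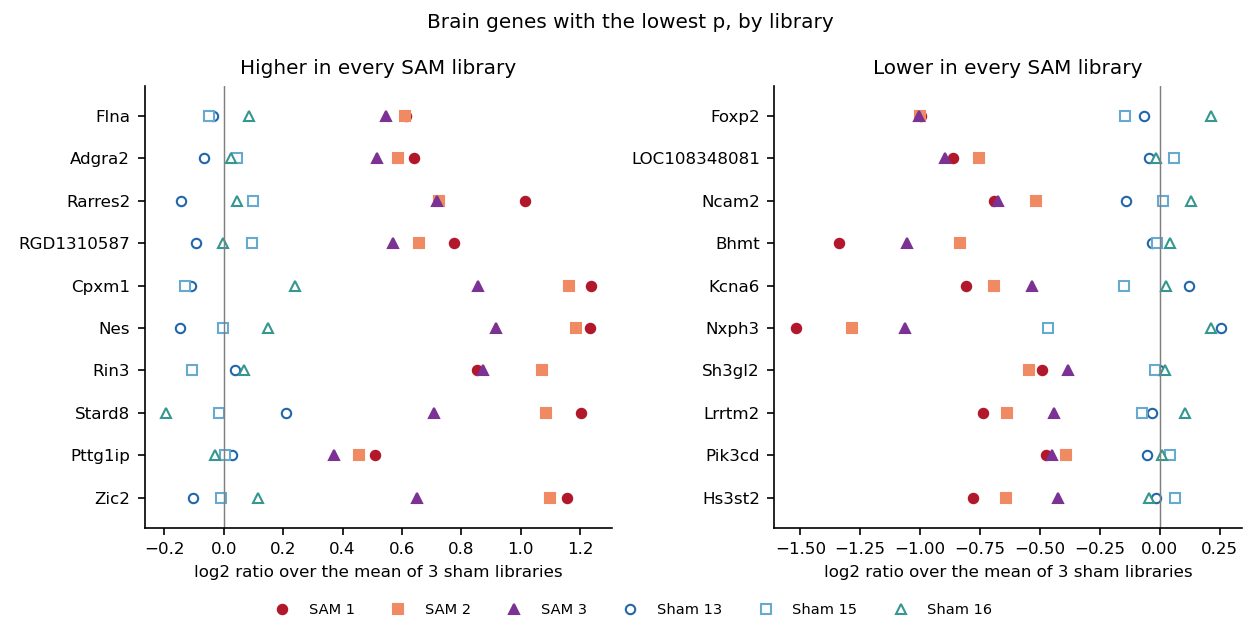
The 20 brain genes with the lowest p among those whose groups did not overlap, each point 1 library, on the x axis as the log2 ratio over the mean of the 3 sham libraries. Filled symbols are SAM and open symbols Sham libraries; the 3 SAM points of Foxp2 coincide near -1 and those of Flna lie close to 0.6.

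The genes with the widest gap between the nearest libraries of the 2 groups were in part the same, with Foxp2, Bhmt and LOC108348081 again on the lower side. On the higher side SAM 3 was the exposed library nearest to Sham in all 5. Frmd7 (ENSRNOG00000024762), a cytoskeletal gene known from inherited nystagmus, stood at 108 and 94.0 CPM in SAM 1 and SAM 2, at 2.59 CPM in SAM 3 and at 0.335, 0.242 and 0.309 CPM in Sham. SAM 3 was thus far below the other exposed libraries, and its place above all sham libraries was required by the rule. Cpa6, a secreted carboxypeptidase, was at 22.8 and 20.2 CPM in SAM 1 and SAM 2, at 0.648 CPM in SAM 3 (8 counts) and at 0, 0 and 0.155 CPM in Sham (3 counts in all). The list of olfactory bulb genes was likewise far lower in SAM 3, with median log2 ratios of 3.36, 3.39 and 0.35 in SAM 1, 2 and 3 and -0.30 to 0.32 in Sham. Its part in the Frmd7 and Cpa6 differences was not tested. Alx4, a homeobox gene of the skull and skin, was at 4.89, 2.68 and 1.70 against 0.167, 0.485 and 0.361 CPM (3.19 ± 0.53). Slc26a7 (3.26 ± 0.55), an anion transporter, and Ebf3 (4.18 ± 0.76), a transcription factor, were the others on the higher side. The other lower genes were Lypd6b and AABR07017825.7. Lypd6b, a modulator of acetylcholine receptors, was at 0.870, 1.61 and 3.16 against 5.58, 7.03 and 6.39 CPM (-1.79 ± 0.42), and AABR07017825.7 was at 0.707, 0.892 and 1.46 against 3.96, 4.97 and 2.63 CPM (-1.94 ± 0.36).

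Fibroblast genes of the meninges were higher by a similar amount in all 3 exposed libraries. Of 14 listed symbols 13 were in the table and 11 were tested, all 11 with a positive log2 fold change (median 1.02, against 0.01 over all tested genes), 10 at an unadjusted edgeR p under 0.05 on the higher side (background 11.9%) and 8 with groups that did not overlap (background 11.6%). The median log2 ratio over the sham mean was 1.04, 0.90 and 0.99 in SAM 1, 2 and 3, and -0.39, -0.07 and 0.45 in Sham 13, 15 and 16. The summed level ran from 287 to 299 CPM in SAM and from 108 to 205 CPM in Sham. Sham 16 was the highest sham library for 9 of the 11, between the other sham libraries and the exposed ones.

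Col1a1 (ENSRNOG00000003897), a chain of fibrillar collagen I, stood at 40.7, 34.0 and 33.4 CPM in SAM and at 10.4, 11.2 and 20.1 CPM in Sham (1.37 ± 0.26). Decorin (Dcn), a small proteoglycan that binds collagen, was at 19.9, 13.8 and 16.8 against 6.87, 7.76 and 9.73 CPM (1.05 ± 0.19). Col3a1, of collagen III, was at 43.2, 33.9 and 44.2 against 18.0, 13.3 and 24.8 CPM (1.11 ± 0.23). The organic anion transporter gene Slc22a6, a marker of arachnoid barrier cells, was at 18.3, 18.6 and 16.9 against 6.08, 8.06 and 12.3 CPM (1.02 ± 0.25). In these 4 genes the lowest exposed library lay above the highest sham library. Igf2, a growth factor made by meninges and choroid plexus, and Fmod overlapped between the groups since Sham 16 lay within the SAM range, at 52.4 CPM for Igf2 against 19.4 and 19.9 CPM in the other sham libraries and 47.2 to 72.4 CPM in SAM.

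Basement membrane genes, whose proteins form the sheets around vessels and under the pia, were higher in much the same way. Of 13 tested members 11 were positive (median 0.56), 11 had an unadjusted p under 0.05 on the higher side (background 11.9%) and 10 had groups that did not overlap (background 11.6%). The per-library medians were 0.56, 0.48 and 0.44 in SAM and between -0.03 and 0.02 in Sham. Nidogen 1 (Nid1), which links laminin to collagen IV, was at 62.8, 42.5 and 31.8 against 15.02, 17.9 and 20.96 CPM (1.35 ± 0.26), and Nid2 at 17.4, 15.998 and 9.64 against 6.14, 6.12 and 7.21 CPM (1.15 ± 0.23). Sparc, which binds collagen in the matrix, was at 566, 537 and 507 against 419, 364 and 374 CPM (0.48 ± 0.10). The laminin chain gene Lama5 had a log2 fold change of 0.73 ± 0.15. The exceptions were Lamb1, at 18.4 and 22.7 CPM in SAM 1 and SAM 2, 48.5 CPM in SAM 3 and 41.2 to 52.9 CPM in Sham, and Lamc1, whose groups overlapped.

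Genes of the actin crosslinkers and intermediate filaments followed, with 10 of 11 positive (median 0.32), 5 at an unadjusted p under 0.05 on the higher side (background 11.9%) and 7 not overlapping (background 11.6%). Besides Flna and Nes these were led by vimentin (Vim), the filament of glia, fibroblasts and vessel cells, at 156, 134 and 158 against 65.9, 65.8 and 100 CPM (0.95 ± 0.18), and talin 1 (Tln1), which couples integrins to actin, at 95.8, 95.8 and 94.9 against 77.8, 75.6 and 76.1 CPM (0.32 ± 0.06). The gliosis and inflammation list, in which Vim also stands, gave 6 of 8 positive, 3 at an unadjusted p under 0.05 on the higher side (background 11.9%) and 2 not overlapping (background 11.6%), Vim and Timp1. Timp1, an inhibitor of matrix proteases, was at 4.84, 4.76 and 6.16 against 1.84, 1.70 and 2.83 CPM (1.29 ± 0.25). Gfap, the filament of reactive astrocytes, was at 734 and 780 CPM in SAM 1 and SAM 2 and at 376 CPM in SAM 3, inside the sham range of 278 to 391 CPM. The part of the meningeal content of the samples in these differences was not tested.

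**Figure D2:**
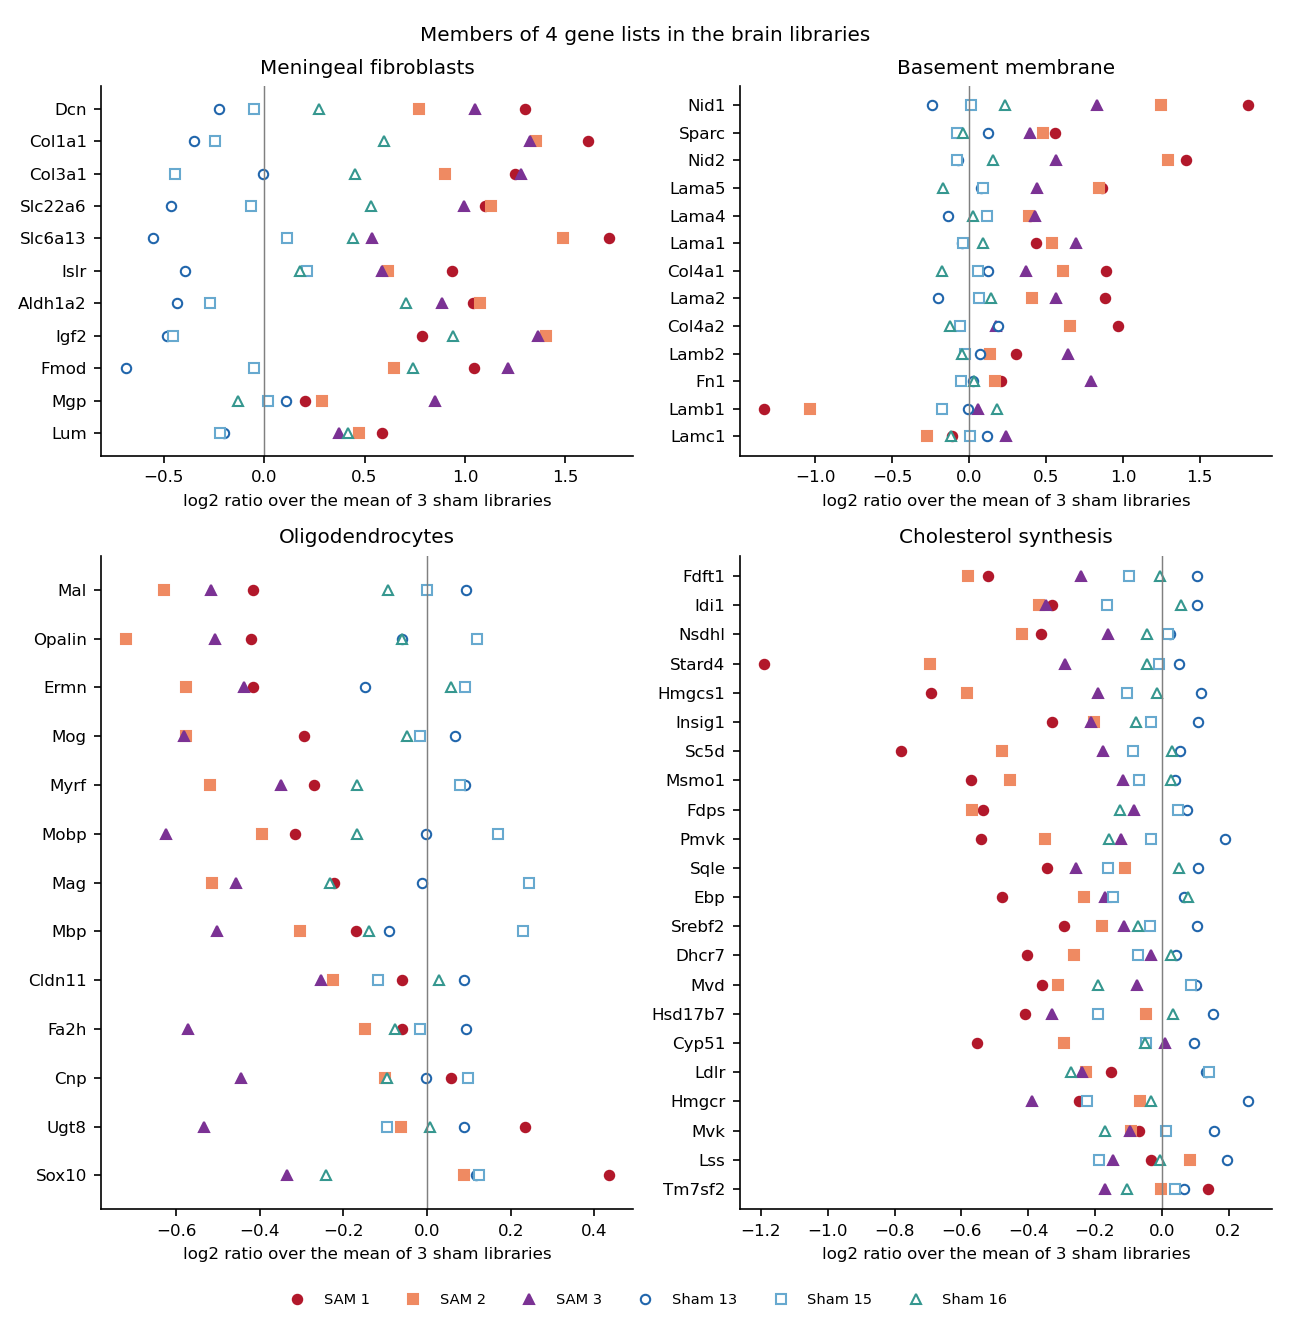
Tested members of 4 gene lists in the 6 brain libraries, without those not reported here, ordered by p from the top, each point 1 library, on the x axis as the log2 ratio over the mean of the 3 sham libraries. In the meningeal panel the SAM points lie mostly between 0.5 and 1.5 while Sham 16 (open triangles) lies right of the other sham libraries; in the oligodendrocyte panel SAM 3 (filled triangles) is farthest left in the lower rows.

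The AhR targets were examined because the receptor is the classic sensor of dioxin-like PCBs. Of 8 listed symbols 7 were in the table and 4 were tested. All 4 were positive, with a median of 0.52 that was 0.15 in the fit over 24 libraries and 0.19 with no filter, where more members were tested. Of the 4, 2 had an unadjusted p under 0.05 on the higher side (background 11.9%) and the same 2 had groups that did not overlap (background 11.6%). The promoter sequences of the 3 tested targets with a RefSeq entry (build GRCr8, 250 bases before the annotated start, gene strand) are shown because the receptor and Arnt bind a known core, GCGTG, which lies in capitals where it occurs on either strand, as GCGTG or as its complement CACGC.

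Cyp1b1, chr6:21094315-21094564, plus strand:
Cyp1b1: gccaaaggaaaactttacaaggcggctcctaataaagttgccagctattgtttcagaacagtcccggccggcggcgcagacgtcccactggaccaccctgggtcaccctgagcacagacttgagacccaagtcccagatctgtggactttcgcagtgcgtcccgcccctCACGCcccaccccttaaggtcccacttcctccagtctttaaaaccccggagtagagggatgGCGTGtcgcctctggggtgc
Tiparp, chr2:152063519-152063768, plus strand:
Tiparp: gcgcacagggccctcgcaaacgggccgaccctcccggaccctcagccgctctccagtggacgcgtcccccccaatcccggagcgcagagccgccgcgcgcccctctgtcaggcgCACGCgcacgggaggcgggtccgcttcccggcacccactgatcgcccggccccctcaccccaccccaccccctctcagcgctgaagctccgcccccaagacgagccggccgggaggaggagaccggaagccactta
Nqo1, chr19:52220268-52220517, minus strand:
Nqo1: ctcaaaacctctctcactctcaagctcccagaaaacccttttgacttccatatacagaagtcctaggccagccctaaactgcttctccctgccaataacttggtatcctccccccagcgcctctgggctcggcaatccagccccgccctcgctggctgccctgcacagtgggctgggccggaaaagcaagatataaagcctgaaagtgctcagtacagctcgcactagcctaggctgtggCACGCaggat

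The Cyp1b1 window held 2 matches, which begin 81 and 20 bases before the start, and the Tiparp and Nqo1 windows held 1 match each. Among listed targets that were not tested, the Ahrr window held 3 matches, the Ugt1a6 window 1 and the Cyp1a2 window 0. Of all 33469 promoters in the table, 25.9% held at least 1 match in the same window. A match describes the letters and does not show binding.

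Cyp1b1 (ENSRNOG00000040287), a cytochrome P450 that oxidises steroids and aromatic hydrocarbons outside the liver, stood at 7.77, 6.30 and 7.62 CPM in SAM and at 2.51, 2.85 and 4.02 CPM in Sham, or 94 to 143 counts against 45 to 78. All exposed libraries were above all sham libraries, and the log2 fold change was 1.20 ± 0.22. Aldh3a1, an aldehyde dehydrogenase, was at 1.63, 1.78 and 2.27 against 1.06, 0.788 and 1.34 CPM (0.81 ± 0.28). Nqo1, a quinone reductase, was at 12.1, 13.1 and 16.3 against 11.4, 13.5 and 12.6 CPM (0.14 ± 0.15). Tiparp, a member of the poly(ADP-ribose) polymerase family that dampens the receptor, was at 8.86, 13.6 and 8.18 against 9.43, 6.91 and 9.84 CPM (0.23 ± 0.24). The groups overlapped in both genes. The direction for Tiparp turned without SAM 2 (-0.03).

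The other direct targets were near the limit of detection. Cyp1a1, the most widely used marker of the receptor, had 0 to 2 counts per brain library, Cyp1a2 had 0 in all of them, and Ahrr, the receptor's repressor, had 0, 2 and 3 counts in SAM and 6, 7 and 5 in Sham. Of the receptor and its partners, Ahr itself stood at 7.83, 8.33 and 13.6 against 14.6, 10.5 and 13.5 CPM. Arnt was at 42.3, 44.2 and 35.8 against 30.8, 31.7 and 32.9 CPM (0.36 ± 0.10). It was the 1 of the 6 members with an unadjusted p under 0.05, on the higher side (background 11.9%). With so few members this count is close to the background. Cyp1b1 moved with the meningeal list: in both, Sham 16 was the highest sham library and all exposed libraries were higher. The summed level of the 11 tested and 2 other listed meningeal genes is given above, no defining member was at 0 in any library, and its part in the Cyp1b1 difference was not tested. In the other tissues Cyp1b1 averaged 31.4 ± 10.03 CPM in SAM and 38.3 ± 3.38 in Sham thymus, and 92.9 ± 4.04 and 87.6 ± 1.94 CPM in spleen (SD, n = 3), and in liver it was at or under 0.253 CPM. It had 0 counts in every SAM liver library, so its brain difference minus that of the other tissues has no usable estimate.

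**Figure D3:**
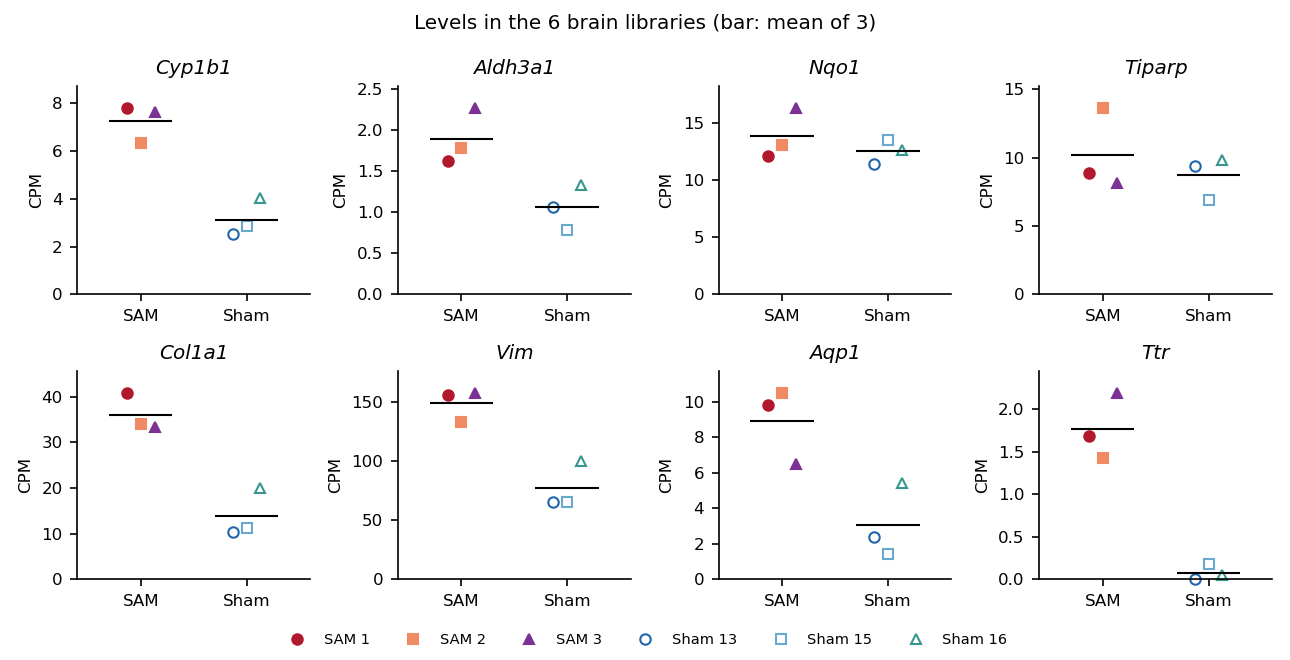
Levels of 8 genes in the 6 brain libraries in CPM (y axis from 0), each point 1 library and each bar the mean of 3. Cyp1b1, Aldh3a1, Col1a1, Vim, Aqp1 and Ttr separate the groups, with Sham 16 the highest sham library except for Ttr, and Nqo1 and Tiparp overlap.

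NRF2 targets, which answer to oxidative and electrophilic stress, had 10 of 13 positive at a median of 0.14, 3 at an unadjusted p under 0.05 on the higher side (background 11.9%) and 0 on the lower side (background 8.61%). The median ratios were 0.11, 0.15 and 0.18 in SAM and -0.063 to 0.032 in Sham. The 3 with groups that did not overlap were the metallothioneins Mt1 (1.02 ± 0.28) and Mt2A (1.04 ± 0.32), which bind zinc and copper, and Gsta4 (0.61 ± 0.19), a glutathione transferase. Mt2A was at 41.4, 24.5 and 16.9 against 12.4, 15.6 and 12.6 CPM. Of the CAR and PXR list, the receptors for non-dioxin-like PCBs and drugs with their targets, 5 of 12 members in the table were tested. This list had 0 members at an unadjusted p under 0.05 on the higher side (background 11.9%) and 1 on the lower side (background 8.61%). Its Cyp2b2, Cyp2b3 and Cyp3a2 genes had 0 counts in every brain library. The efflux pump gene Abcc2 was at 7.45, 6.96 and 6.81 against 8.88, 8.54 and 8.91 CPM (-0.31 ± 0.12).

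Thyroid hormone handling is of interest because hydroxylated PCBs compete for the hormone's carrier, transthyretin. That gene, Ttr (ENSRNOG00000016275), made in brain by the choroid plexus, had 31, 24 and 27 counts in SAM and 0, 3 and 1 counts in Sham. The ratio of the pooled rates was 23.2, with an exact 95% counting interval of 8.73 to 87.2 that leaves out the spread between animals. The level was at most 2.19 CPM in any brain library, and Alb, the albumin gene of liver, overlapped between the groups at 6.96, 8.62 and 14.7 against 14.2, 11.3 and 10.5 CPM. Of 5 tested choroid plexus genes, Ttr included, 4 were positive, 3 at an unadjusted p under 0.05 on the higher side (background 11.9%) and 1 on the lower side (background 8.61%). Their median ratios were 1.03, 1.74 and 0.74 in SAM. Aqp1, its water channel, was at 9.84, 10.5 and 6.48 against 2.40, 1.45 and 5.41 CPM (1.52 ± 0.46), Kcnj13, a potassium channel, overlapped (1.13 ± 0.47), and Enpp2 had a log2 fold change of -0.27 ± 0.08. Of the 6 members too low to test, Clic6 had 46, 15 and 4 counts in SAM and 2, 5 and 5 in Sham, Sostdc1 24, 8 and 0 against 1, 0 and 2, and Prlr 7, 14 and 4 against 1, 3 and 1. Slc4a5 had 6, 11 and 8 against 8, 6 and 10 counts, Folr1 at most 4 in any library and Otx2 0 in all. Of 9 tested thyroid genes 3 had an unadjusted p under 0.05, 2 on the higher side (background 11.9%) and 1 on the lower side (background 8.61%). With so few members these counts are close to the background. Among the 3 were Ttr and the receptor gene Thrb (-0.83 ± 0.31). For Thrb SAM 3 lay close to the sham libraries, at 43.9, 58.8 and 106 against 139, 107 and 124 CPM.

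Oligodendrocytes wrap axons in myelin, and 13 of their 14 tested genes had a negative log2 fold change (median -0.36), 7 at an unadjusted p under 0.05 on the lower side (background 8.61%) and 7 below every sham library (background 12.2%). The lower members were genes of mature myelin. Mal, a myelin proteolipid, was at 157, 135 and 146 against 223, 209 and 196 CPM (-0.52 ± 0.09), Opalin, a membrane glycoprotein of the myelin sheath, at 98.6, 80.1 and 92.9 against 127, 143 and 127 CPM (-0.55 ± 0.11), Mog, on the outermost myelin surface, at 65.6, 53.9 and 53.8 against 84.3, 79.5 and 77.8 CPM (-0.48 ± 0.10), and Ermn, a cytoskeletal protein of late myelination, at 50.5, 45.2 and 49.7 against 60.8, 71.8 and 70.1 CPM (-0.48 ± 0.09). The lineage regulator Sox10, by comparison, was at 69.7, 54.8 and 40.8 against 55.9, 56.2 and 43.6 CPM, with overlapping groups. The exposed libraries differed in how far the list reached: 7, 12 and 14 of its members lay below the sham range in SAM 1, 2 and 3, where 38.4, 37.4 and 27.6% of all tested genes did. The list of oligodendrocyte precursors had a median of 0.05.

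Cholesterol synthesis, which in the adult brain supplies myelin and synaptic membranes locally, was lower in small steps. All 23 tested members were negative (median -0.26), 11 at an unadjusted p under 0.05 (background 8.61%) and 11 below every sham library (background 12.2%). Fdft1, which commits farnesyl units to sterols, was at 82.4, 79.0 and 100 against 127, 110 and 118 CPM (-0.44 ± 0.11), and Idi1, an isomerase of the isoprenoid units, at 23.2, 22.6 and 22.9 against 31.4, 26.1 and 30.4 CPM (-0.35 ± 0.10). The medians per library were -0.40, -0.29 and -0.17 in SAM and -0.05 to 0.10 in Sham, so the steps were smallest in SAM 3, where 15 of the 23 lay below the sham range (27.6% of all tested genes did). The opposite order held for the oligodendrocyte list, at -0.20, -0.35 and -0.51.

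Regional neuron markers differed by region. The hippocampal list had median ratios of -0.087, -0.038 and -0.052 in SAM, inside the sham range, and the thalamic list 0.38, 0.26 and 0.19 against -0.12 to 0.12 in Sham. Of the 14 striatal genes 12 were negative (median -1.30), 8 at an unadjusted p under 0.05 (background 8.61%) and 4 below every sham library (background 12.2%). Their median ratios were -0.99, -1.12 and -1.01 in SAM, but also -0.63 in Sham 13 against 0.25 and 0.47 in Sham 15 and 16. The dopamine receptor gene Drd1 was at 6.47, 5.89 and 3.403 against 8.71, 12.97 and 23.8 CPM (-1.52 ± 0.41), and Adora2a, the adenosine receptor of the indirect pathway, at 6.96, 6.30 and 6.24 against 5.41, 21.9 and 22.6 CPM, so that Sham 13 lay with the exposed libraries. Foxp2, also a striatal marker, kept Sham 13 apart from them, as the rule that named it required.

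The cortical and olfactory bulb markers were farthest from Sham in SAM 1 and SAM 2. Cortical excitatory genes had median ratios of -1.77 and -1.49 there and -0.05 in SAM 3, and the olfactory bulb genes 3.36 and 3.39 against 0.35. All 3 exposed libraries lay below every sham library in 6 of 12 cortical genes (background 12.2%) and above in 3 of 5 tested bulb genes (background 11.6%). Eomes and Tbx21, transcription factors of the bulb's mitral and tufted cells, gave 512 and 402 counts and 235 and 287 counts in SAM 1 and SAM 2, 6 and 1 counts in SAM 3 and at most 1 and 7 in any sham library. Robo3, an axon guidance receptor, was at 0.761, 3.57 and 97.8 against 41.8 to 88.9 CPM. By the same rule Spp1, the matrix protein osteopontin, stood at 102, 62.4 and 2.27 against 0.223 to 1.33 CPM, and Shisa8, an AMPA receptor partner, at 103, 83.0 and 3.24 against 1.45 to 1.55 CPM. These are values of single libraries, of which 39.2% and 37.9% of all tested genes lay above the sham range in SAM 1 and SAM 2.

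**Figure D4:**
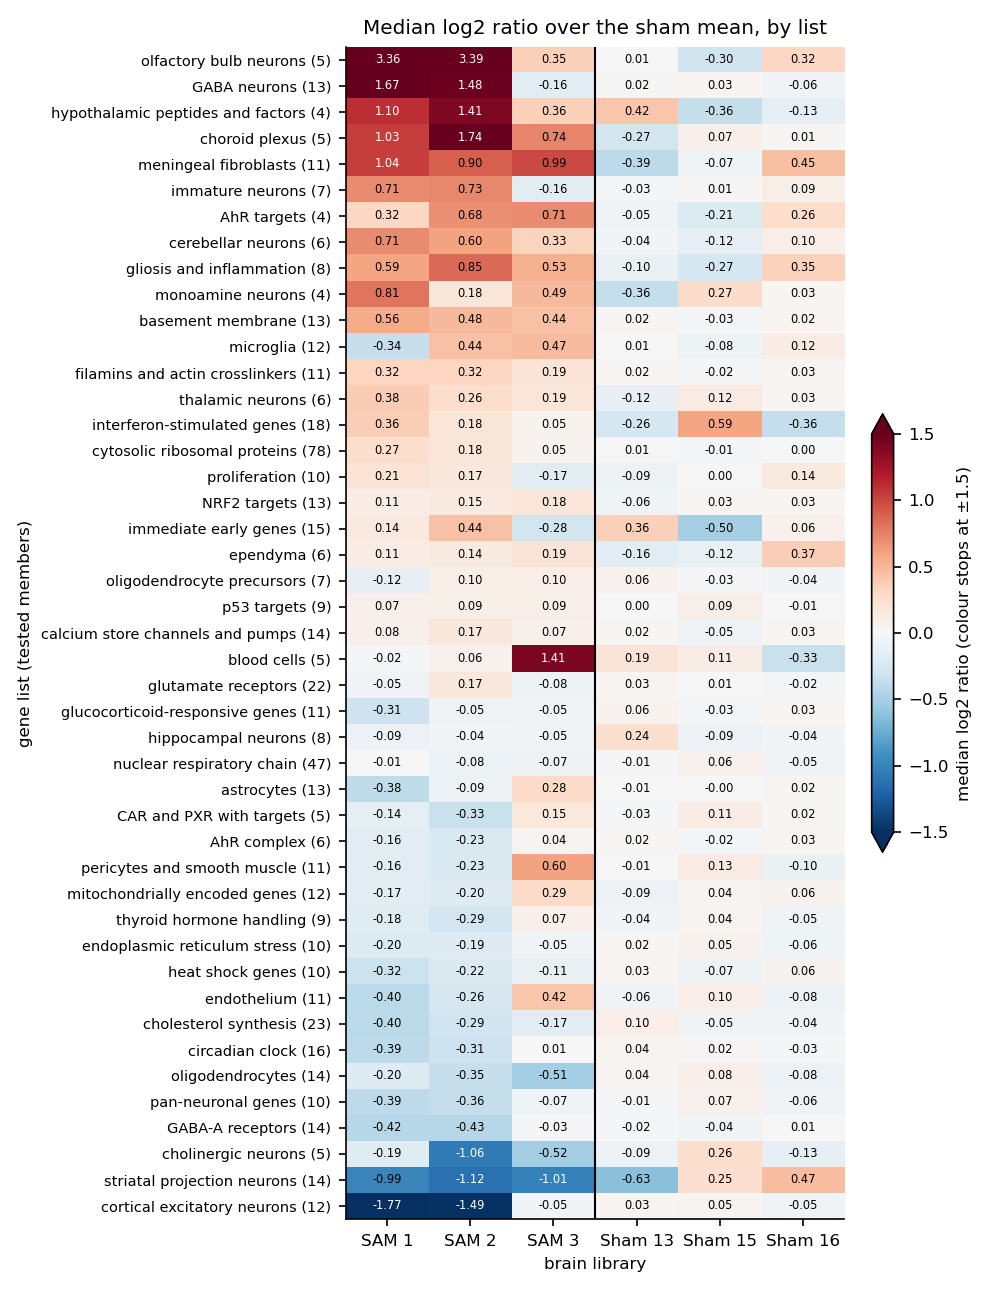
Median log2 ratio over the mean of the 3 sham libraries for each gene list with at least 4 tested members (rows, number tested in brackets) in the 6 brain libraries (columns); red is higher, blue lower, and the printed number is the median. Olfactory bulb, GABA and cortical rows are strongest in SAM 1 and SAM 2, the blood row in SAM 3 alone (1.41), and the meningeal row is near 1 in all SAM libraries.

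SAM 3 differed from all other brain libraries in a second way. Its vessel and blood genes were higher: the pericyte and smooth muscle list had a median ratio of 0.60 with 11 of 11 members above the sham range (27.7% of all genes were), the endothelial list 0.42 with 10 of 11, and the blood list 1.41 with 5 of 5. SAM 1 and SAM 2 were at -0.16 and -0.23, -0.40 and -0.26, and -0.02 and 0.06 for these lists. Beta-globin (Hbb) was at 183 CPM in SAM 3 against 73.8 and 75.8 in the other exposed libraries and 54.5 to 78.4 in Sham. Mitochondrially encoded genes took 9.20% of its counts and 7.05 to 7.92% of those of the others. In contrast Myl9, a myosin light chain of smooth muscle, was at 21.0, 21.7 and 22.8 against 15.6, 14.9 and 15.7 CPM, and so higher in all exposed libraries (0.50 ± 0.09). Microglial genes split the exposed group in another way, with 11 of 12 below the sham range in SAM 1 (38.4% of all genes were) and 11 of 12 above it in both SAM 2 and SAM 3 (37.9 and 27.7%). Csf1r, the growth factor receptor that microglia depend on, was at 63.8, 114 and 113 against 86.3, 85.9 and 97.96 CPM.

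Among single genes SAM 3 stood apart in Sparcl1 (ENSRNOG00000015093), a secreted astrocyte and vessel protein that promotes synapse formation. It was at 77.8 CPM in the brain of SAM 3 and at 1878 and 2044 CPM in SAM 1 and SAM 2 and 2351 to 2724 CPM in Sham. The libraries numbered SAM 3 from the other tissues were low in the same gene: 0.932 CPM in liver, where the other libraries had 14.7 to 19.5 CPM, 0.673 against 72.8 to 108 CPM in thymus, and 2.56 against 48.8 to 70.9 CPM in spleen. The reverse held for one of the 2 genes called RT1-CE16 (ENSRNOG00000047706), of the major histocompatibility complex, at 8.10 CPM in the brain of SAM 3 against 0.558 to 0.970 CPM in the other brain libraries. That gene was at 33.1 against 2.92 to 5.44 CPM in liver, 51.9 against 9.06 to 16.3 CPM in thymus and 97.7 against 18.3 to 20.7 CPM in spleen. Reads of RT1 genes can be split between near-identical copies, so its level is uncertain, and the second gene of that name overlapped between the groups. The labels do not state that equal numbers are the same animal; in both genes the library numbered 3 was the extreme one in all 4 tissues. These genes were taken by the rule for single libraries, as were Prdm6 above and Hcrtr1, the orexin receptor, below the sham range in SAM 3 (3.24 against 0.391 to 1.08 CPM, and 0.405 against 2.0 to 4.47 CPM).

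**Figure D5:**
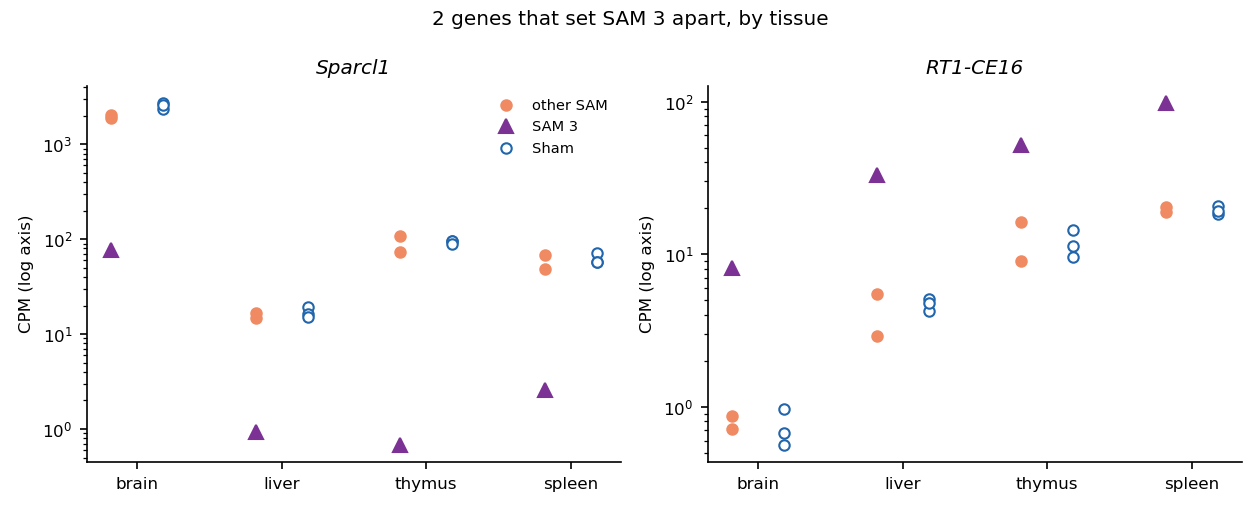
Levels of Sparcl1 and of the RT1-CE16 gene ENSRNOG00000047706 in all 24 libraries by tissue, in CPM on a log axis, with SAM 3 as filled triangles, the other SAM libraries as filled circles and Sham as open circles. In every tissue SAM 3 is lowest for Sparcl1 (77.8 CPM in brain) and highest for RT1-CE16 (8.10 CPM in brain).

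Of the remaining lists, heat shock genes were lower in 7 of 10 tested members (median -0.20), with 4 at an unadjusted p under 0.05 (background 8.61%) and 5 below every sham library (background 12.2%). Dnaja1, a partner of Hsp70, was at 160, 173 and 175 against 215, 200 and 225 CPM (-0.33 ± 0.08). Interferon-stimulated genes were spread by Sham 15, with a median ratio of 0.59 there and -0.26 and -0.36 in the other sham libraries, and their median log2 fold change was 0.04. Within that list Gbp2, a guanylate-binding protein, was at 7.50, 6.90 and 8.35 against 4.02, 5.15 and 5.36 CPM (0.64 ± 0.17). Cytosolic ribosomal protein genes were positive in 77 of 78, with a median of 0.17. Only 10 had an unadjusted p under 0.05 on the higher side, near the background of 11.9%, and 36 lay above every sham library (background 11.6%). In SAM 1, 2 and 3 singly, 74, 70 and 42 of them lay above the sham range, where 39.2, 37.9 and 27.7% of all tested genes did.

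Receptors and calcium channels, which are targets of non-dioxin-like PCBs in neurons, were described by 3 lists. Of 14 calcium store channels and pumps 8 were positive (median 0.05), 5 at an unadjusted p under 0.05 on the higher side (background 11.9%) and 1 on the lower side (background 8.61%). Ryr1, the ryanodine receptor, was at 86.6 and 96.6 CPM in SAM 1 and SAM 2 and at 19.9 CPM in SAM 3, within the sham range of 9.27 to 31.7 CPM, and Ryr2 overlapped at 287, 312 and 317 against 332, 298 and 300.2 CPM. Of 14 GABA receptor subunits 10 were negative (median -0.22) and 4 lay below every sham library (background 12.2%). The median ratios were -0.42, -0.43 and -0.030 in SAM 1, 2 and 3 and -0.042 to 0.0086 in Sham, so that SAM 3 lay inside the sham range. The subunits were led by Gabra3 (43.6, 48.4 and 68.2 against 84.2, 75.5 and 91.2 CPM, -0.65 ± 0.18). The glutamate receptor list, with 22 tested, had a median of -0.03.

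Whether the brain difference departed from that of the other tissues was tested with 1 edgeR fit over all 24 libraries, as the brain difference minus the mean of the liver, thymus and spleen differences. It passed for 91 of 17623 genes (0.516%), 87 of them with a higher and 4 with a lower difference in brain. The contrast has no usable estimate for 3016 genes that had 0 counts throughout at least 1 tissue group, 4 of them among the 91. With the animal number as a replicate block the contrast passed for 2 genes, none of them named in this paragraph. Of the 91, 79 were among the genes tested in brain. There all SAM libraries lay above all sham libraries for 53 (background 11.6%) and below for 4 (background 12.2%). The contrast contains the brain difference itself, so it favours genes whose groups separate. SAM 1 and SAM 2 lay above the sham range for 75 each and SAM 3 for 53, where 39.2, 37.9 and 27.7% of all tested genes did. For the list members that passed, the contrast was 0.89 for Vim (edgeR adjusted p = 0.0268), 1.30 for Timp1 (0.0261) and 1.44 for Nid1 (0.0268). It was 3.06 for Doc2g (0.0261), an olfactory bulb marker, and 2.21 for Meis2 (0.0268), a homeobox factor of bulb and striatum. The olfactory bulb list had median ratios of 3.36, 3.39 and 0.35 in SAM 1, 2 and 3 and -0.30 to 0.32 in Sham. Its part in the Doc2g and Meis2 differences was not tested. Of the genes named by lowest p the contrast passed for Rin3, at 0.93 (edgeR adjusted p = 0.0197), and Nxph3, at -2.01 (0.0429). It did not pass for Flna, at 0.46 (adjusted p = 0.177), which was at 862 to 1019 CPM in the thymus and 19.4 to 28.3 CPM in the liver. The count rested on single libraries, at 2 without Sham 15, 4 without Sham 13, 8 without SAM 1, 10 without SAM 2, 52 without Sham 16 and 1450 without SAM 3.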

How the data were processed

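The authors deposited 1 table of whole-number read counts per gene, not normalized. Per the labels' protocols, RNA came from RNeasy columns and went into stranded TruSeq mRNA libraries. The submitters' processing notes list the aligner STAR 2.2.1 and the build rn6. The counting program and its strand setting are not stated there, so reads of overlapping genes and near-identical copies may be split. Columns were matched by tissue and animal number.

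Low-count genes were removed with filterByExpr and libraries scaled by TMM in edgeR 4.0.16 (R 4.3.3). The quasi-likelihood test compared 3 SAM with 3 sham brain libraries, with Benjamini-Hochberg adjustment at 0.05. Alternatives used limma 3.58.1, DESeq2 1.42.0 and sva 3.50.0. Ratios per library use log2 CPM with a prior count of 2. The code was tested on simulated counts.

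The rule named, among genes averaging at least 1 CPM, the 10 of lowest p and the 5 of widest gap in each direction, 5 per exposed library on each side, 8 sentinels, and up to 4 members per list by p. Ahr, Abcc2, Igf2, Fmod, Lamb1, Lamc1, Adora2a, Sox10, Eomes, Tbx21, Csf1r, Alb, Ryr1, Ryr2, Folr1, Otx2, Clic6, Sostdc1, Prlr and Slc4a5 stand outside it or were chosen after their values were seen. The members and the 49 lists (654 of 676 symbols found) were chosen with earlier results of these data known. Some genes that the rule names are not reported here.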

Additional observations from a re-analysis of the deposited data

Results flagged for a closer look

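The SAM minus Sham difference in brain departed from the mean difference of the other 3 tissues for 91 genes by the tested contrast of the edgeR fit over all libraries. Of the genes named by lowest p this held for Rin3 and Nxph3. The brain difference of Rin3 was larger by 0.93 on the log2 scale (edgeR adjusted p = 0.0197). For Nxph3 the contrast was -2.01 (edgeR adjusted p = 0.0429). All 3 exposed brain libraries lay above all 3 sham ones for Rin3 and below them for Nxph3, as the rule that named both genes required. With the animal number as a replicate block 2 genes passed, neither of them Rin3 or Nxph3.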

How the results depend on the processing

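edgeR called 0 brain genes with RLE scaling, with or without the filter on low counts and with 1 CPM in 3 libraries as the filter, as did limma-voom. It was DESeq2 that called 503, limma-voom with library weights 6488 (weights of 0.994, 3.11 and 0.177 for SAM 1, 2 and 3), 1 surrogate variable 4, the fit over 24 libraries 579, and the fit without both SAM 1 and SAM 2 called 1, Sparcl1. Leaving out each library in turn gave 0 to 5896. The genes at an unadjusted p under 0.05 numbered 7890 with library weights, 1483 with the surrogate variable, 1129 without both SAM 1 and SAM 2, and 1265 to 7340 with each library left out. The contrast with the other tissues called 20 genes with limma-voom, 2 with the animal number as a replicate block, and 2 to 1450 with each brain library left out. Over the genes with counts in every tissue group, a choice made after seeing the data, it called 96. Equal animal numbers were not taken as paired, since the labels do not state it. Deviations of the same number in brain and another tissue correlated at -0.0097 to 0.14, and those of unequal numbers at -0.15 to 0.11. The same-number values were above 0 except for SAM 1 in spleen, while those of unequal numbers lay on both sides of 0. The 2 ranges overlap, so they do not decide whether equal numbers mark the same animal. Sparcl1 and an RT1-CE16 gene were extreme in SAM 3 in every tissue, so the contrast may ignore a pairing.

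Of 71 genes followed, 70 kept the sign of their log2 fold change under every setting in which they were tested. Many of them were chosen for a low p or for groups that did not overlap, and such groups keep their sign when a library is left out. Their kept signs were thus largely set by that choice. Tiparp turned, at -0.038 with the surrogate variable, -0.095 without both SAM 1 and SAM 2, and -0.033 to 0.35 with each library left out. The median of the meningeal list ran from 0.81 without Sham 13 to 1.35 without Sham 16, and that of the AhR targets was 0.15 in the fit over 24 libraries and 0.19 with no filter, where more of its members were tested, against 0.52. Depth limits all values under about 1 CPM.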

Other observations

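Among the genes whose brain difference departed from that of the other tissues, 6 that belong to no list above were chosen after their values were seen. Their edgeR adjusted p for that departure ran from 0.0261 to 0.0429, and none passed the test within brain (edgeR adjusted p = 0.221 for each) or the contrast with the animal number as a replicate block. Cdh1, the epithelial cadherin, which the arachnoid barrier layer also makes, stood at 10.2, 7.43 and 10.05 CPM in SAM and averaged 3.10 CPM in Sham (log2 fold change 1.56). Mpzl2, an adhesion molecule of epithelia, was at 4.89, 5.35 and 5.27 CPM against a mean of 1.82 (1.49). Krt8, an epithelial keratin, was at 3.91, 2.74 and 3.403 against 1.23 CPM (1.44), and Itgb4, the integrin subunit of hemidesmosomes, at 30.8, 21.7 and 35.0 against 11.6 CPM (1.33). Sfrp1, a secreted Wnt antagonist, was at 27.3, 28.2 and 22.6 CPM against a mean of 8.15 (1.67), and Aebp1, a matrix protein of connective tissue, at 56.0, 65.1 and 55.3 against 27.2 CPM (1.11). In each of these 6 genes every exposed library lay above every sham library. The same held for 53 of the 79 genes that passed the contrast and were tested in brain, and for 11.6% of all tested genes. Since the 6 were chosen with their values seen, their separation was favoured by the choice.

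The circadian clock list had a median log2 fold change of -0.28, with per-library medians of -0.39, -0.31 and 0.0052 in SAM 1, 2 and 3, and 0.0035 without both SAM 1 and SAM 2. Arntl, its core activator, was at 38.4, 33.5 and 41.1 CPM in SAM and 45.5, 47.4 and 46.9 CPM in Sham (-0.31 ± 0.09). The astrocyte list had a median of 0.036, which ran from -0.27 without SAM 3 to 0.28 without both SAM 1 and SAM 2. Of its 13 tested members 7 were positive. At an unadjusted p under 0.05 it had 2 on the higher side (background 11.9%) and 0 on the lower side (background 8.61%). In SAM 1, 2 and 3, 10, 7 and 1 members lay below the sham range, where 38.4, 37.4 and 27.6% of all tested genes did. Above it lay 2, 4 and 10, against 39.2, 37.9 and 27.7%. Among the positive members, Slc4a4, a bicarbonate transporter of astrocytes, was at 183, 194 and 134 against 97.1, 110 and 109 CPM (0.69 ± 0.15). Neither gene passed edgeR's adjusted test.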
